A study of Mus musculus with 24 samples.

Results

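The 8 genes of the ribosomal protein S6 (rpS6) kinase family were followed in the striatum of mice whose rpS6 cannot be phosphorylated. They were picked out by gene symbol, with no value used in the rule: *Rps6kb1* and *Rps6kb2*, which encode the p70 S6 kinases (S6K), *Rps6ka1*, *Rps6ka2*, *Rps6ka3* and *Rps6ka6*, which encode the p90 ribosomal S6 kinases (RSK), and *Rps6ka4* and *Rps6ka5*, which encode the mitogen- and stress-activated kinases (MSK). All 8 symbols were found once among the 24079 genes of the count table, and all 8 passed the filter on low counts in every comparison.

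RNA of the nucleus accumbens (Acb) and of the dorsal striatum (DS) was sequenced from rpS6P-/- knockin mice and from their wild-type littermates. In the knockin mice the 5 phosphorylatable serines of rpS6 (235, 236, 240, 244 and 247) are alanines in all cells, as the allele is in the germline, and both genotypes came from crosses of heterozygotes on a mixed C57Bl/6, Sv129 and ICR background. For each region and genotype, RNA came either from heavy polysomal fractions of a sucrose gradient, labelled as more than 4 ribosomes, or from the whole lysate, part of which was loaded on that gradient, with cycloheximide in the lysis buffer. Each of the 8 groups held 3 replicates made from pooled mice, which gives 24 libraries. The labels name no drug treatment, and the sources used here do not give the age and sex of the mice pooled for sequencing.

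S6 kinases, RSKs and MSKs belong to the AGC kinases. S6 kinases are switched on by mTORC1 and PDK1, and RSKs by ERK and PDK1, and both phosphorylate the C-terminal tail of rpS6, a protein of the small ribosomal subunit. MSKs are nuclear kinases downstream of ERK and p38 that act on CREB and histone H3, and in striatal neurons ERK, MSK and S6 kinase signalling follows dopamine and glutamate receptors.

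The stretch of *Rps6* that these kinases act on through its protein, and that the knockin alters, is shown first. It lies in exon 5 of 5 at chr4:86854705-86854758 on the minus strand of GRCm38.p6 and codes for residues 232 to 249, with the 7 serine codons in capitals. The knockin replaces 5 of these 7, and the serines at 242 and 246 are not among the residues named for the allele. The reference letters come from wild-type mouse.
Rps6: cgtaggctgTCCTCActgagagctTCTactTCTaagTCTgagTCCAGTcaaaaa

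The members of a family resemble each other, and the reads were 50 bases long, so the stretches of coding sequence in which relatives come closest show how far reads can be told apart. No run of 50 bases was shared between any 2 members in their reference coding sequences. The closest pair was *Rps6ka1* and *Rps6ka3*, which differ at 2 of 50 bases, at coding bases 274 to 323 and 289 to 338 respectively. Capitals mark the bases that differ between the members of a pair.
Rps6ka1: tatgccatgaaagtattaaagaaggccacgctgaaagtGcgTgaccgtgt
Rps6ka3: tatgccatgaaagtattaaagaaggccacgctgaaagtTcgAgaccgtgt
The MSK genes came closest with 5 differences, at coding bases 430 to 479 of *Rps6ka4* and 475 to 524 of *Rps6ka5*.
Rps6ka4: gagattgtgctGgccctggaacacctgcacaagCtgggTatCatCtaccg
Rps6ka5: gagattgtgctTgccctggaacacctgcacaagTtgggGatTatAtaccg
The S6 kinase genes were the most distant of these pairs, with 8 differences, at coding bases 688 to 737 of *Rps6kb1* and 616 to 665 of *Rps6kb2*.
Rps6kb1: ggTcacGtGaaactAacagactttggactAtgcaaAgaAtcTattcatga
Rps6kb2: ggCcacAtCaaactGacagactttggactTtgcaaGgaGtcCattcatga
The authors discarded alignments with more than 3 mismatches, so reads of the first pair of stretches lie within that limit of the other gene, and those of the other pairs shown do not. *Rps6ka1* and *Rps6ka2* came within 3 differences, at coding bases 1378 to 1427 and 1366 to 1415.

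The genes lie on different chromosomes except for *Rps6kb2* and *Rps6ka4*, both on chromosome 19, and *Rps6ka3* and *Rps6ka6*, both on X (GRCm38.p6, RefSeq). *Rps6kb1* is at chr11:86498869-86544885 (minus strand) with a reference transcript of 5531 bases, and *Rps6kb2* at chr19:4156792-4163383 (minus) with 1409 bases. Of the RSK genes, *Rps6ka1* is at chr4:133847290-133887797 (minus) with 2637 bases, *Rps6ka2* at chr17:7088971-7303315 (plus) with 5406, *Rps6ka3* at chrX:159255665-159368244 (plus) with 7244, and *Rps6ka6* at chrX:111387837-111538097 (minus) with 4170. The MSK genes *Rps6ka4* at chr19:6829084-6842145 (minus) and *Rps6ka5* at chr12:100548439-100725328 (minus) have reference transcripts of 3105 and 4406 bases. Their counts are uncertain where sequence is shared: 34.5% of the 50-base runs of the *Rps6ka2* transcript also occur in transcripts of *Sod2* and AC166110.4, and 20.1% of those of *Rps6ka4* in transcripts that overlap it on the same strand.

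Libraries held 9280589 to 34703044 reads assigned to genes. Over all of them *Rps6ka3* was counted with 526 to 4072 reads, *Rps6ka2* with 685 to 3374, *Rps6kb1* with 306 to 2346, *Rps6ka4* with 229 to 1531, *Rps6ka5* with 207 to 897, *Rps6ka1* with 74 to 518 and *Rps6ka6* with 53 to 674. *Rps6kb2* had the fewest, 35 to 254 reads, and its values carry the largest counting error of the 8. As a check on the tissue, 9 of the 10 markers of medium spiny neurons, the output neurons of both regions, are in the table, and none of the 9 was at 0 in any library. Levels are given below as CPM, read counts scaled to each library's effective size (TMM), and between genes only per kilobase of reference transcript (CPM per kb).

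Per length, *Rps6ka2* (RSK3) and *Rps6ka3* (RSK2) had the highest RNA levels of the family and *Rps6ka6* (RSK4) the lowest, by medians over both regions. In the 12 whole lysates the level of *Rps6ka2* ranged from 10.2 to 16.9 CPM per kb with a median of 15.2, and that of *Rps6ka3* from 8.74 to 18.8 with a median of 13.3. *Rps6kb1*, the S6K1 gene, had a median of 9.29 CPM per kb (6.66 to 10.6) and *Rps6ka4* one of 9.20 (6.82 to 12.7). *Rps6ka5* followed with 7.40 CPM per kb (5.56 to 11.3), *Rps6kb2* with 4.17 (2.25 to 9.46), *Rps6ka1* with 4.14 (2.89 to 5.38) and *Rps6ka6* with 2.21 (1.49 to 3.12). Neighbours in this order overlapped in range. *Rps6ka2* was above *Rps6ka3* in 7 of 12 lysates, a count over 2 regions with opposite orders. *Rps6ka3* was above *Rps6ka2* in 0 of 6 lysates of the Acb and 5 of 6 of the DS. Over both regions *Rps6kb1* was above *Rps6ka4* in 4 of 12 and *Rps6kb2* above *Rps6ka1* in 5 of 12, so neither of these pairs differed beyond its spread. *Rps6ka3* was above *Rps6kb1* and *Rps6ka1* above *Rps6ka6* in 12 of 12.

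In heavy polysomal fractions the order held *Rps6ka3* first, with a median of 16.5 CPM per kb (12.9 to 19.5), before *Rps6ka2* with 14.6 (11.6 to 17.3), but it was above it in only 6 of 12 libraries. This order differed by region. *Rps6ka3* was above *Rps6ka2* in 1 of 6 heavy fractions and 0 of 6 lysates of the Acb, and in 5 of 6 of each in the DS. *Rps6ka4* (13.4, range 9.87 to 16.3) stood above *Rps6kb1* (11.1, range 9.37 to 13.4) in 11 of the 12 libraries. *Rps6ka5* (5.41, range 3.501 to 7.13) lay below every value of *Rps6kb1*, with a median ratio of *Rps6kb1* to *Rps6ka5* of 2.09 between these neighbours. *Rps6ka1* (4.16, range 2.06 to 7.22), *Rps6kb2* (3.04, range 1.56 to 8.10) and *Rps6ka6* (2.07, range 1.08 to 4.22) came last, with overlapping ranges. In heavy fractions of the Acb *Rps6kb2* and not *Rps6ka6* was the lowest member, with medians of 2.22 and 3.46 CPM per kb, and it was above *Rps6ka6* in 2 of 6 libraries there and in 6 of 6 in the DS. The order depends on the length used. Per kilobase of coding sequence *Rps6ka3* was above *Rps6ka2* in lysates, with medians of 43.5 and 37.3 CPM per coding kb, and *Rps6ka5* above *Rps6ka4*, with 12.6 and 12.3. On this scale the order of *Rps6kb1* and *Rps6ka4* turned in heavy fractions, with medians of 39.1 and 17.9. In lysates, where their medians per kilobase of transcript were close, those per kilobase of coding sequence were 32.6 and 12.3. *Rps6kb1* was then also above *Rps6ka2* in heavy fractions, where *Rps6ka2* had a median of 35.9.

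**Figure D1:**
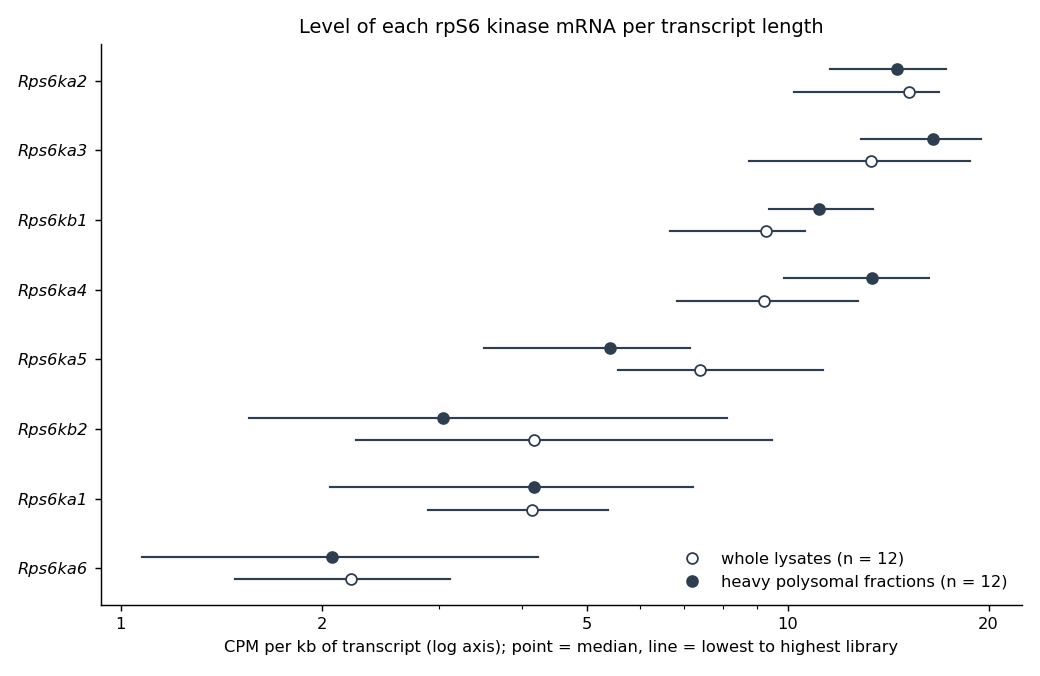
RNA level of the 8 rpS6 kinase genes per kilobase of reference transcript (CPM per kb, log axis), for lysates and for heavy polysomal RNA. Points are medians of 12 libraries, and lines run from the lowest to the highest library. By medians over both regions *Rps6ka2* and *Rps6ka3* lie at the top and *Rps6ka6* at the bottom in both kinds of RNA, with lysate medians of 15.2, 13.3 and 2.21 CPM per kb.

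Within the S6K pair, *Rps6kb1* exceeded *Rps6kb2* per length by a median of 2.13-fold in lysates of the Acb (1.38 to 2.67, n = 6) and of 2.13-fold in those of the DS (1.001 to 4.36). In heavy fractions the ratio was 4.45 in the Acb (4.34 to 7.11) and 2.62 in the DS (1.59 to 3.73). The Acb ratios of heavy fractions all lay above those of Acb lysates. Within the MSK pair, the ratio of *Rps6ka4* to *Rps6ka5* was 1.26 in Acb lysates (1.15 to 1.71) and 1.03 in DS lysates (0.825 to 1.86). It was 2.51 in heavy fractions of the Acb (1.76 to 3.89) and 2.55 in those of the DS (1.98 to 3.51), with all heavy values above all lysate values in both regions.

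**Figure D2:**
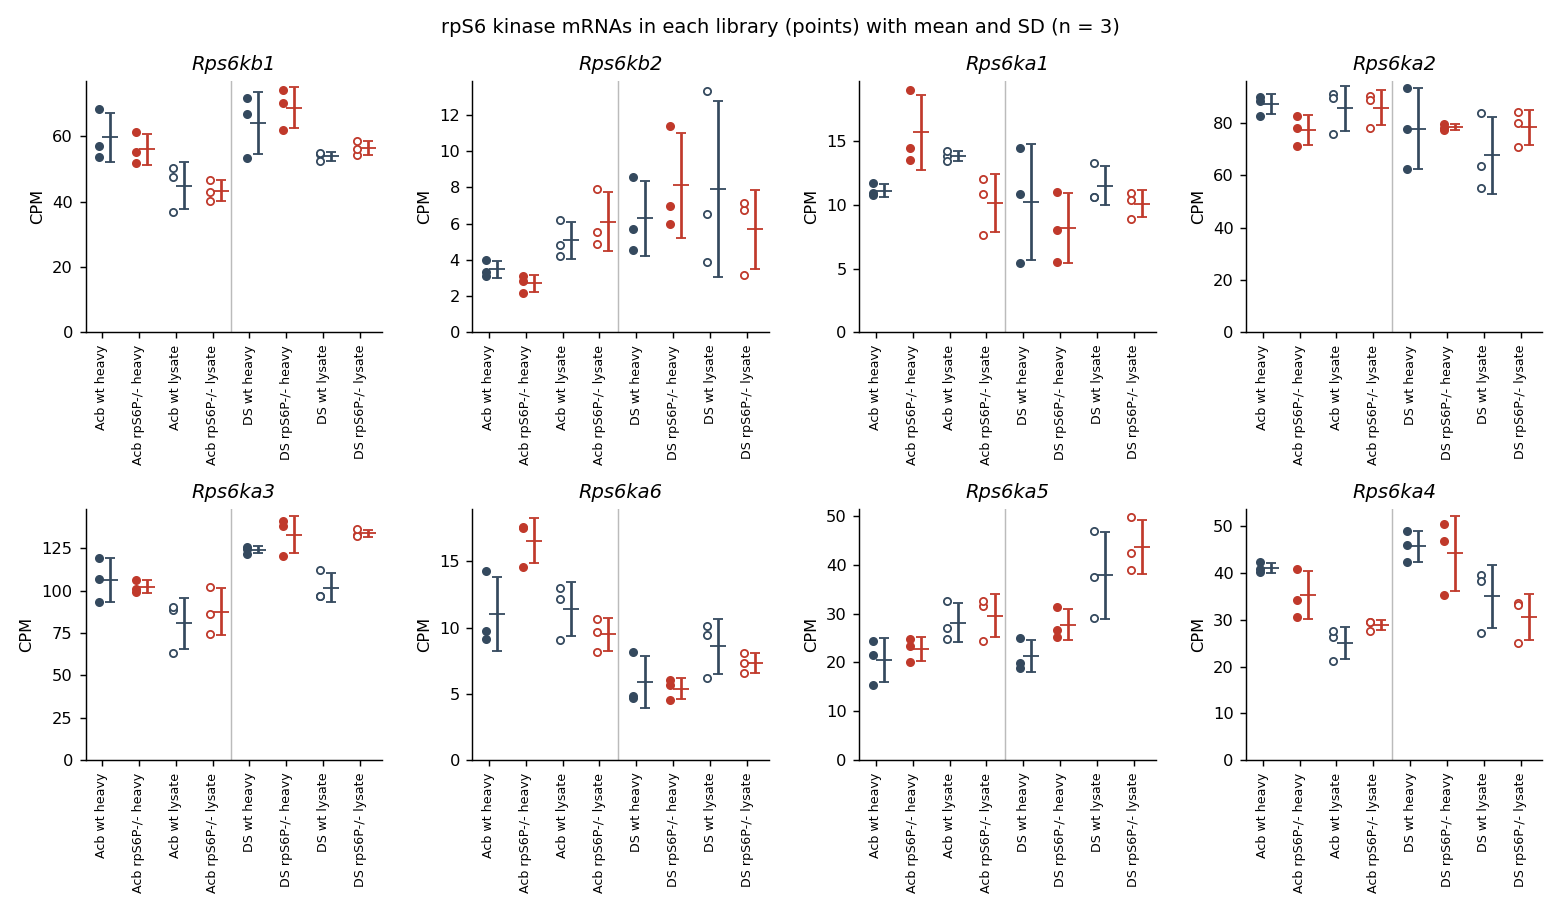
CPM of each rpS6 kinase gene in each of the 24 libraries, by region, genotype and kind of RNA (red, rpS6P-/-; dark blue, wild-type; filled, heavy polysomal fraction; open, whole lysate). Between genotypes 4 of 8 members did not overlap in heavy fractions of the Acb and 2 in Acb lysates, where 25.0% and 8.37% of all genes did not. In the DS 1 did not in heavy fractions and 1 in lysates, where 11.1% and 13.6% of all genes did not. *Rps6ka6* separates the heavy fractions of the Acb (9.14 to 17.6 CPM) from those of the DS (4.49 to 8.14 CPM).

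The first question was whether loss of rpS6 phosphorylation goes with a change in the RNA of its kinases. *Rps6* itself, whose coding sequence is altered by the allele, had mean levels of 357 ± 40.9 CPM in wild-type and 367 ± 29.4 CPM in rpS6P-/- heavy fractions of the Acb (SD, n = 3). Its log2 fold changes (rpS6P-/- over wild-type) were 0.08 in heavy fractions and -0.05 in lysates of the Acb, and 0.13 and -0.02 in those of the DS, and none passed the test. The counts cannot show the serine to alanine changes, so *Rps6* does not check the genotype labels, and 84.6% of its 50-base runs also occur in pseudogenes.

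In heavy fractions of the Acb, 0 of 8 members passed the test at an adjusted p under 0.05 (edgeR quasi-likelihood test with Benjamini-Hochberg adjustment), where 0.0% of the 16227 genes tested did (0 genes, against 1090 by DESeq2). DESeq2 gave an adjusted p for 5 of the 8 members, none of them called, and none for *Rps6ka1*, *Rps6ka6* and *Rps6kb2*, whose unadjusted p values in DESeq2 were 0.0258, 0.0124 and 0.394. At an unadjusted p under 0.05 there were 2 of 8 members and 21.7% of all genes. These were *Rps6ka6*, the X-linked RSK4 gene, and *Rps6ka1*, the RSK1 gene. *Rps6ka6* was at 9.75, 9.14 and 14.2 CPM in the wild-type libraries and at 17.5, 17.6 and 14.6 CPM in the rpS6P-/- libraries. All 3 rpS6P-/- values were above all wild-type values. On the log2 scale the fold change was 0.62 (SE 0.22), with an unadjusted p of 0.0114 and an adjusted p of 0.136 in edgeR. *Rps6ka1* was at 10.8, 10.9 and 11.7 CPM in wild-type and at 14.5, 13.5 and 19.04 CPM in rpS6P-/- libraries, again without overlap. Its log2 fold change was 0.53 (SE 0.21), with an unadjusted p of 0.0214 and an adjusted p of 0.165 in edgeR. In bulk tissue, fewer cells of a type and less RNA per cell cannot be told apart, here and in all comparisons that follow. *Rps6kb2* (3.48 ± 0.463 CPM in wild-type and 2.71 ± 0.474 in rpS6P-/- mice) and *Rps6ka2* (87.1 ± 3.79 and 77.3 ± 5.81) also had no overlap between genotypes, with log2 fold changes of -0.33 and -0.14. With these, 4 of 8 members did not overlap, where 25.0% of all genes did not. The log2 fold changes of *Rps6kb1*, *Rps6ka3*, *Rps6ka4* and *Rps6ka5* were -0.05, -0.02, -0.19 and 0.19.

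In whole lysates of the Acb, where 0.0065% of genes were called (1 gene), again 0 of 8 members were by edgeR or DESeq2. At an unadjusted p under 0.05 there were also 0 of 8, where 2.96% of genes passed, and the lowest was 0.187, for *Rps6ka1*. *Rps6ka1* was at 13.8, 13.4 and 14.2 CPM in wild-type and at 10.9, 12.03 and 7.62 CPM in rpS6P-/- lysates, so the order of the genotypes was opposite to that of the heavy fractions. This was a log2 fold change of -0.45 (SE 0.33, adjusted p = 0.9996 in edgeR). *Rps6ka1* and *Rps6ka4* did not overlap between genotypes, which is 2 of 8, where 8.37% of all genes did not. *Rps6ka6*, at 12.1, 9.06 and 12.996 CPM in wild-type and 9.68, 8.13 and 10.6 CPM in rpS6P-/- lysates, overlapped, with a log2 fold change of -0.27. The other 5 members had values between -0.06 and 0.26.

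The heavy fraction relative to the lysate (translational efficiency) was compared between genotypes in the Acb as an interaction over 12 libraries. Each library was scaled to its own effective size. The ratio therefore gives loading on heavy polysomes relative to all genes, not the share of an RNA found there. *Rps6ka1* had the largest interaction of the 8, 0.98 on the log2 scale (SE 0.39, unadjusted p = 0.0163, adjusted p = 0.325 in edgeR), and *Rps6ka6* had 0.88 (SE 0.40, unadjusted p = 0.0329, adjusted p = 0.384). So 0 of 8 members were called, where 0.0% of genes were, and 2 of 8 had an unadjusted p under 0.05, where 11.9% of genes did. DESeq2 called 0. The adjusted p ranged from 0.251 to 0.788 for *Rps6ka1* and from 0.350 to 0.742 for *Rps6ka6* over the alternative settings. This interaction uses the same libraries as the heavy and lysate comparisons.

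In the DS, 0 of 8 members were called in heavy fractions, where 0.044% of genes were (7 genes), and 0 of 8 in whole lysates, where 0.122% were (19 genes). At an unadjusted p under 0.05 there were 0 of 8 in heavy fractions (6.42% of genes) and 1 of 8 in lysates (9.07% of genes), and DESeq2 called 0 of the 4 members and 1 of the 3 members to which it gave an adjusted p. *Rps6ka5*, the MSK1 gene, was at 18.9, 25.0 and 19.8 CPM in wild-type and at 25.2, 26.6 and 31.4 CPM in rpS6P-/- heavy fractions. It was the only member of the 8 without overlap there, where 11.1% of all genes had none. The log2 fold change was 0.40 (SE 0.23, adjusted p = 0.811 in edgeR). In DS lysates the member with the lowest p was *Rps6ka3*, the X-linked gene of RSK2. It was at 112, 96.8 and 96.6 CPM in wild-type and at 133, 132 and 136 CPM in rpS6P-/- lysates, and it alone of the 8 did not overlap, where 13.6% of genes did not. The log2 fold change of *Rps6ka3* was 0.38 (SE 0.11, unadjusted p = 0.00204, adjusted p = 0.209 in edgeR). DESeq2 called it, with an adjusted p of 0.0304, and over the alternative settings its adjusted p ranged from 0.0304 to 0.580. As *Rps6ka3* is X-linked and the sex of the pooled mice is not given, the sex-linked transcripts are given beside it. *Xist*, which is expressed in females, was at 1.90, 6.13 and 2.53 CPM in wild-type DS lysates and at 0.539, 4.45 and 0 CPM in rpS6P-/- DS lysates. The sum of 4 Y-linked genes was 49.5, 54.5 and 80.7 CPM in wild-type and 51.3, 39.6 and 126 CPM in rpS6P-/- DS lysates. Both overlapped between genotypes, 0 of the 5 genes were called, and their part in the result was not tested.

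For the other members of DS lysates the log2 fold changes lay between -0.49 (*Rps6kb2*, SE 0.41) and 0.20 (*Rps6ka2*), and for those of DS heavy fractions between -0.30 (*Rps6ka1*) and 0.38 (*Rps6kb2*, SE 0.39). The lysate value of *Rps6kb2* rests on wild-type replicate 3, at 13.3 CPM where its group also had 3.86 and 6.54 CPM, and was 0.12 without it. *Rps6kb1*, with 53.9 ± 1.34 CPM in wild-type and 56.5 ± 2.18 CPM in rpS6P-/- DS lysates, had a log2 fold change of 0.05. Its values for genotype were -0.05, -0.06, 0.11 and 0.05 over the heavy fractions and lysates of the Acb and those of the DS. For translational efficiency in the DS, 0 of 8 members were called by edgeR or DESeq2 (0.0% of genes by edgeR), 0 of 8 had an unadjusted p under 0.05 (4.9% of genes), the lowest was 0.153, and values ranged from -0.29 to 0.83 (*Rps6kb2*).

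**Figure D3:**
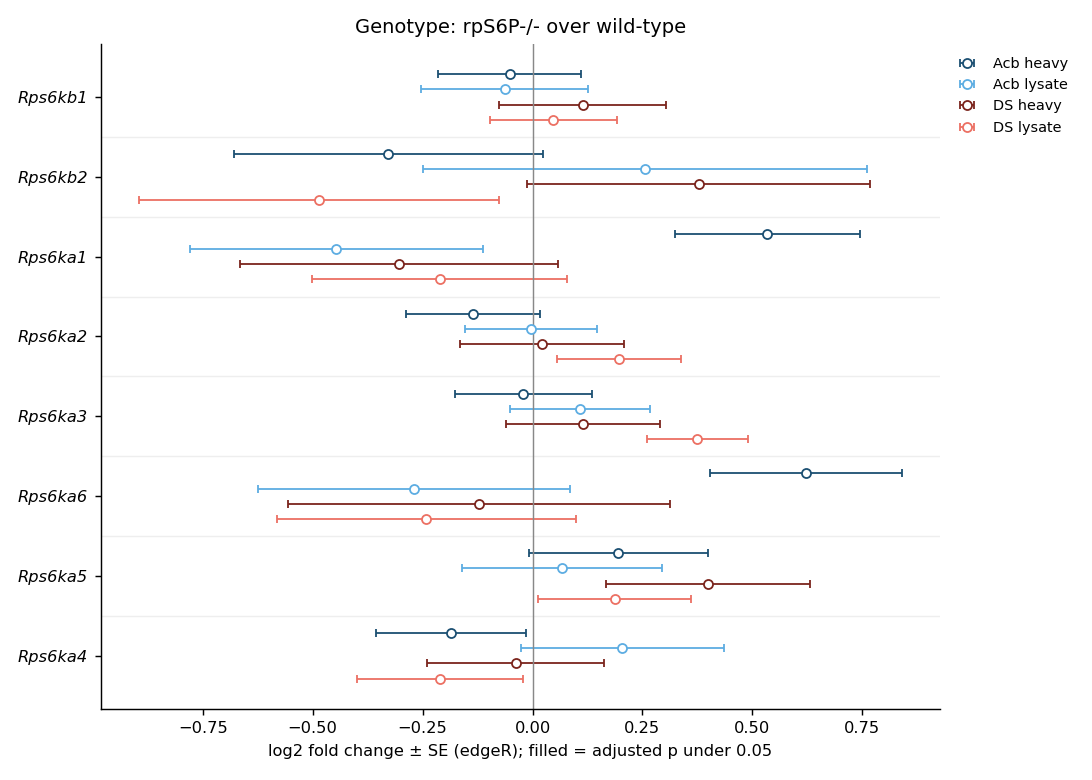
Log2 fold change (rpS6P-/- over wild-type, ± SE) of each rpS6 kinase gene in the 4 genotype comparisons, where a filled point would be an adjusted p under 0.05. No point is filled, and *Rps6ka1* and *Rps6ka6* have their highest values, 0.53 and 0.62, in heavy fractions of the Acb.

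The difference of the genotype effect between regions was tested itself. In heavy fractions *Rps6ka1* had an interaction (Acb minus DS) of 0.86 (SE 0.44, adjusted p = 0.387 in edgeR) and *Rps6ka6* one of 0.77 (SE 0.41, adjusted p = 0.408), and *Rps6kb2* had -0.69. No member was called in heavy fractions (0.00592% of genes were) or in lysates (0.00611% of genes), where values lay between -0.27 and 0.74. DESeq2 called 0 of the 5 members with an adjusted p in heavy fractions and 0 of 8 in lysates, and 0 of 8 had in edgeR an unadjusted p under 0.05, where 13.8% of genes did in heavy fractions and 5.11% in lysates.

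Regulators, substrates and relatives of these kinases were taken from 9 lists of 87 genes. The relatives were 21 other AGC kinases and 2 RPS6K-like proteins. In the 4 genotype comparisons 0 of the 86 tested were called. At an unadjusted p under 0.05 there were 27 in heavy fractions of the Acb, or 31.4%, where 21.7% of all genes were, and 2.33% in Acb lysates, where 2.96% were. The lowest p values of the lists belonged there to *Prkar1a*, a regulatory subunit of PKA (log2 fold change 0.80, adjusted p = 0.0983 in edgeR), and *Map2k1*, the ERK kinase MEK1 (0.71, adjusted p = 0.105). *Rps6kc1*, a kinase-like relative of the family, had 0.59 (adjusted p = 0.110), and *Pdpk1*, which encodes PDK1, the activator shared by S6K and RSK, had 0.45 (adjusted p = 0.138). In heavy fractions of the DS 4.65% had an unadjusted p under 0.05, where 6.42% of all genes did, and in DS lysates 11.6%, where 9.07% did.

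The second question was how the family differs between the regions. In heavy fractions, with both genotypes in the fit, 2 of 8 members were called, 25.0% where the background was 19.8% of genes. *Rps6ka6* was higher in the Acb and *Rps6kb2* higher in the DS. The level of *Rps6ka6* ranged from 9.14 to 17.6 CPM with a mean of 13.8 ± 3.66 CPM in the Acb (SD, n = 6) and from 4.49 to 8.14 CPM with a mean of 5.62 ± 1.37 CPM in the DS. Every Acb value was above every DS value. The log2 fold change (Acb over DS) was 1.26 (SE 0.22, adjusted p = 0.000237 in edgeR). *Rps6kb2* was at 3.10 ± 0.593 CPM in the Acb (2.19 to 4.01) and at 7.21 ± 2.47 CPM in the DS (4.56 to 11.4), also without overlap. Its log2 fold change was -1.22 (SE 0.27, adjusted p = 0.00279 in edgeR). *Rps6ka3*, at 104 ± 8.89 and 129 ± 8.74 CPM, did not overlap either, with a log2 fold change of -0.30 and an adjusted p of 0.0536. *Rps6ka3* was called in 5 of 21 alternative settings: with DESeq2 (adjusted p = 0.0109), with its size factors in edgeR (0.0460), with the length trend removed alone (-0.45, 0.00315) or with the replicate block (0.00726), and without wild-type heavy replicate 3 of the Acb (0.0460). In all, 3 of 8 members did not overlap, where 8.42% of genes did not.

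The calls of *Rps6ka6* and *Rps6kb2* were kept in 20 of the 21 alternative settings and lost in wild-type libraries alone, where 6 libraries are left. There the log2 fold changes were 0.91 (adjusted p = 0.109 in edgeR) and -0.85 (adjusted p = 0.244). In rpS6P-/- libraries alone they were 1.64 and -1.57, both called, and *Rps6ka1* was called too, with 0.96 (adjusted p = 0.0199). With both genotypes *Rps6ka1* had 0.54 (adjusted p = 0.128), and without the second wild-type heavy library of the DS 0.75 (adjusted p = 0.0189). *Rps6ka4*, *Rps6kb1*, *Rps6ka5* and *Rps6ka2* had values of -0.24, -0.20, -0.17 and 0.07.

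In whole lysates the members called by edgeR were *Rps6ka3* and *Rps6ka5*, both lower in the Acb, which is 2 of 8, or 25.0%, where the background was 19.3% of genes. *Rps6ka3* was at 63.3 to 102 CPM in Acb lysates (84.0 ± 13.5) and at 96.6 to 136 CPM in DS lysates (118 ± 18.4), and the ranges met at 96.6 to 102 CPM. For *Rps6ka3* the log2 fold change was -0.44 (SE 0.10, adjusted p = 0.000553 in edgeR). *Rps6ka5* was at 28.8 ± 3.87 CPM in the Acb (24.5 to 32.7) and at 40.8 ± 7.34 CPM in the DS (29.2 to 49.8), with overlap. Its log2 fold change was -0.46 (SE 0.14, adjusted p = 0.0132 in edgeR). The call of *Rps6ka5* was lost without the first wild-type lysate of the DS (-0.40, adjusted p = 0.0593) and without the first rpS6P-/- lysate of the DS (-0.41, adjusted p = 0.0522). In wild-type lysates alone neither was called, with -0.30 for *Rps6ka3* (adjusted p = 0.193) and -0.40 for *Rps6ka5* (adjusted p = 0.233). In rpS6P-/- lysates alone *Rps6ka3* was called and *Rps6ka5* was not (-0.54, adjusted p = 0.0731).

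*Rps6kb1* was the only member whose lysates did not overlap between regions, with 44.1 ± 5.05 CPM in the Acb (36.8 to 50.4) and 55.2 ± 2.14 CPM in the DS (52.4 to 58.7). Non-overlap was found in 10.2% of all genes. The log2 fold change of -0.29 had an adjusted p of 0.0754 in edgeR. It passed with DESeq2 (adjusted p = 0.0364) and without the first wild-type lysate of the Acb (adjusted p = 0.0477). *Rps6ka2* was at 85.7 ± 6.82 CPM in the Acb and 73.0 ± 11.8 CPM in the DS, with a value of 0.27 and an adjusted p of 0.0598. *Rps6ka6* had 0.42 (adjusted p = 0.264), *Rps6ka4* -0.25 (0.271), *Rps6kb2* -0.23 (0.732) and *Rps6ka1* 0.17. *Rps6* was higher in Acb lysates, at 434 ± 35.8 against 317 ± 27.7 CPM, with a log2 fold change of 0.49 (adjusted p = 8.71e-07).

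**Figure D4:**
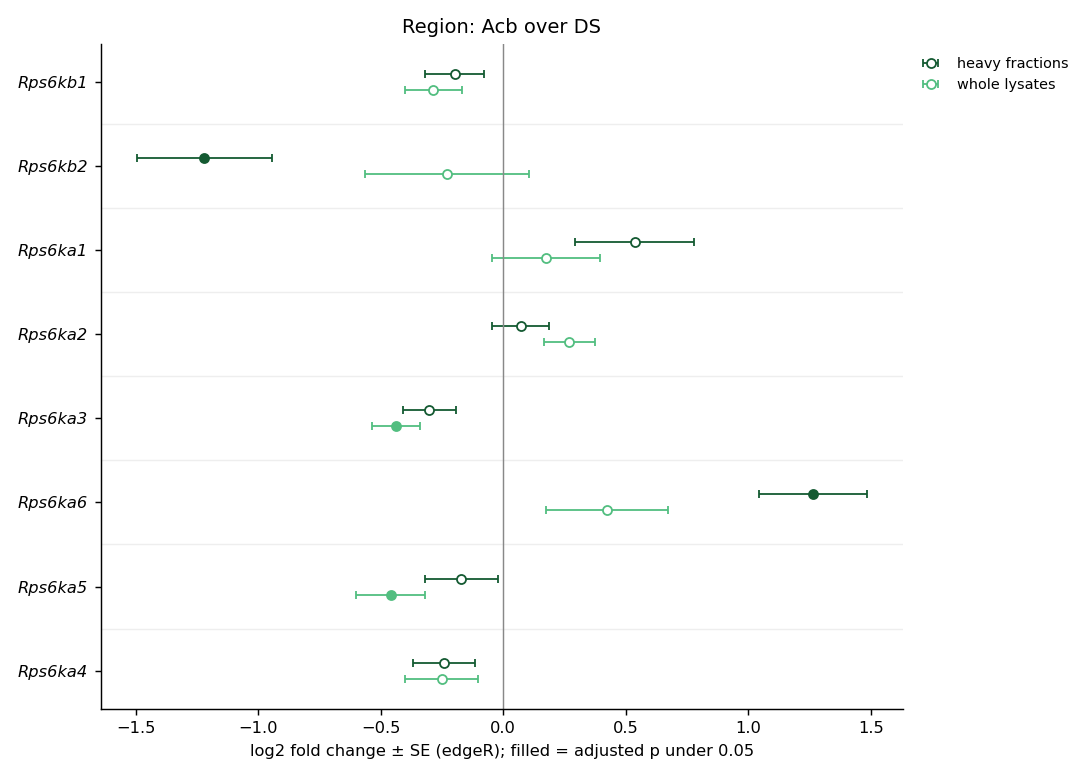
Log2 fold change (Acb over DS, ± SE) of each rpS6 kinase gene for heavy polysomal RNA and for whole lysates, with filled points for an adjusted p under 0.05. In heavy fractions *Rps6ka6* (1.26) and *Rps6kb2* (-1.22) are filled, and in lysates *Rps6ka3* (-0.44) and *Rps6ka5* (-0.46).

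Since the members that edgeR called differed between heavy fractions and lysates, which for *Rps6ka3* depends on the setting, the difference of the region effect between the kinds of RNA was tested in all 24 libraries, an interaction added after the data had been seen. *Rps6ka6* had 0.90 on the log2 scale (SE 0.32, unadjusted p = 0.00726, adjusted p = 0.169 in edgeR) and *Rps6kb2* had -0.96 (SE 0.44, adjusted p = 0.291). With 0 of 8 members called by edgeR, where 0.328% of genes were, and 2 of 8 at an unadjusted p under 0.05, where 15.1% were, a difference in region effect between the kinds of RNA was not shown for any member. DESeq2 called 0 of the 3 members to which it gave an adjusted p, and *Rps6ka6* and *Rps6kb2* were not among these.

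Markers of cell types moved with region. The summed level of 8 markers of cortical excitatory neurons was 182 to 339 CPM in the Acb and 810 to 1101 CPM in the DS, with 6 of 8 lower in the Acb in both kinds of RNA. Of 8 astrocyte markers 6 were higher in the Acb in both kinds of RNA, with sums of 1817 to 2920 CPM in heavy fractions of the Acb and 1066 to 1969 CPM in those of the DS. Of 9 microglial markers 6 were higher in Acb heavy fractions (sums of 271 to 399 against 178 to 270 CPM) and 8 in Acb lysates (193 to 262 against 117 to 149 CPM). Choroid plexus markers summed to 35.4 to 76.7 CPM in the Acb and 11.6 to 19.95 CPM in the DS. *Clic6* alone was at 9.84 to 63.0 CPM over the 24 libraries (median 21.1), and *Ttr* had a median of 1.06 CPM. *Folr1* was at 0 in 18 of 24 libraries, *Kcnj13* in 16, *Otx2* in 9 and *Ttr* in 4. Of 8 oligodendrocyte markers 5 were higher and 0 lower in Acb lysates (2 and 1 in heavy fractions), and of 9 medium spiny neuron markers 2 were higher and 6 lower in Acb lysates (2 and 3 in heavy fractions). Of all genes 9.44% were called higher and 10.3% lower in the Acb in heavy fractions, and 9.71% and 9.56% in lysates. Their part in the region differences of *Rps6ka6*, *Rps6kb2*, *Rps6ka3* and *Rps6ka5* was not tested.

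Among the 87 regulators, substrates and relatives 29 were called between regions in heavy fractions (33.3%, 9 higher and 20 lower in the Acb) and 29 in lysates (33.3%, 7 higher and 22 lower), where 19.8% and 19.3% of all genes were. In the mTORC1 and TSC list 3 of 10 were called in heavy fractions, all lower in the Acb, among them *Deptor*, an inhibitor of mTOR, with -1.16, and the median was -0.31 where that of all genes was 0.02. Of the Ras, ERK and p38 list 1 of 14 was higher (*Map2k1*, 0.70) and 5 were lower, led by *Mapk11*, which encodes p38 beta, with -2.01 (adjusted p = 5.69e-08). PP1 is the phosphatase that dephosphorylates rpS6, and its list holds catalytic subunits and inhibitors. Of these 6 genes 4 were lower, with the inhibitor gene *Ppp1r1a* at -1.07 and *Ppp1ca*, a catalytic subunit, at -0.88. The 1 that was higher was another inhibitor gene, *Ppp1r2*, at 0.65. In lysates *Deptor* had -1.48, *Mapk11* -2.03, *Ppp1ca* -0.53 and *Ppp1r2* 0.80, all called. The counts of the lists differed there: of the mTORC1 and TSC list 1 of 10 was called, lower in the Acb, with a list median of -0.01, and of the Ras, ERK and p38 list 2 of 14 were higher and 1 was lower. The heavy and lysate comparisons come from the same lysates, and their values are set side by side for that reason.

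The last question was which members are more or less abundant on heavy polysomes than in the lysate, relative to all genes. The median log2 fold change of all genes was 0.04 in the Acb and 0.03 in the DS. In the Acb 4 of 8 members were called, 50.0% where the background was 29.8% of genes. *Rps6ka4*, the MSK2 gene, and *Rps6kb1* were higher in heavy fractions, and *Rps6ka5* and *Rps6kb2* lower. *Rps6ka4* was at 38.2 ± 4.61 CPM in heavy fractions (30.7 to 42.3) and at 27.0 ± 3.09 CPM in lysates (21.2 to 29.6), without overlap. Its log2 fold change (heavy over lysate) was 0.47 (SE 0.14, adjusted p = 0.00925 in edgeR). *Rps6kb1* was at 57.9 ± 6.01 CPM (51.8 to 68.3) and 44.1 ± 5.05 CPM (36.8 to 50.4), also without overlap, with a value of 0.36 (SE 0.12, adjusted p = 0.0266). *Rps6ka5* was at 21.6 ± 3.49 CPM in heavy fractions and 28.8 ± 3.87 CPM in lysates, with overlap and a value of -0.45 (SE 0.16, adjusted p = 0.0268). *Rps6kb2* was at 3.10 ± 0.593 CPM (2.19 to 4.01) and 5.60 ± 1.34 CPM (4.21 to 7.93), without overlap, with a value of -0.89 (SE 0.31, adjusted p = 0.0293). With the lysate as replicate block, which pairs heavy and lysate libraries of the same number, *Rps6kb2* was no longer called (-0.88, adjusted p = 0.0573).

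These Acb calls changed with the libraries in the fit. In wild-type libraries alone only *Rps6ka4* of the 8 was called, and in rpS6P-/- libraries alone none was. Leaving out 1 lysate with the heavy fraction of the same number left 1 to 3 of the 4 calls. *Rps6ka4* missed the threshold without the second wild-type replicate (adjusted p = 0.0559). *Rps6kb1* did so without the first or second rpS6P-/- replicate or the third wild-type replicate (0.0760, 0.0667 and 0.162), and *Rps6ka5* without the first rpS6P-/- replicate or the first or the third wild-type replicate (0.0997, 0.0848 and 0.0987). *Rps6kb2* missed it without any replicate except the third wild-type one, with adjusted p from 0.0540 to 0.1002. *Rps6ka3*, *Rps6ka6*, *Rps6ka1* and *Rps6ka2* had values of 0.28 (adjusted p = 0.0765), 0.35, 0.12 and -0.09. Non-overlap was found in 3 of 8 members and in 14.3% of all genes.

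In the DS 2 of 8 members were called, the MSK genes, in opposite directions, 25.0% where the background was 37.0% of genes. *Rps6ka5* was at 24.5 ± 4.62 CPM in heavy fractions (18.9 to 31.4) and at 40.8 ± 7.34 CPM in lysates (29.2 to 49.8). The ranges overlapped between 29.2 and 31.4 CPM. The difference on the log2 scale was -0.74 (SE 0.14, adjusted p = 3.16e-05 in edgeR), and it was called in 15 of 15 alternative settings. *Rps6ka4* was at 45.0 ± 5.55 CPM (35.2 to 50.5) and 32.8 ± 5.80 CPM (25.0 to 39.6), with a value of 0.46 (SE 0.14, adjusted p = 0.00558). It was not called without the second rpS6P-/- replicate (0.35, adjusted p = 0.0620) or in wild-type libraries alone (0.39, adjusted p = 0.166). *Rps6kb1* was at 66.4 ± 7.63 and 55.2 ± 2.14 CPM with a value of 0.27 (adjusted p = 0.0588), *Rps6ka6* had -0.49 (adjusted p = 0.156), and *Rps6kb2* had 0.10. No member lacked overlap between heavy fractions and lysates in the DS, where 19.4% of all genes did.

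**Figure D5:**
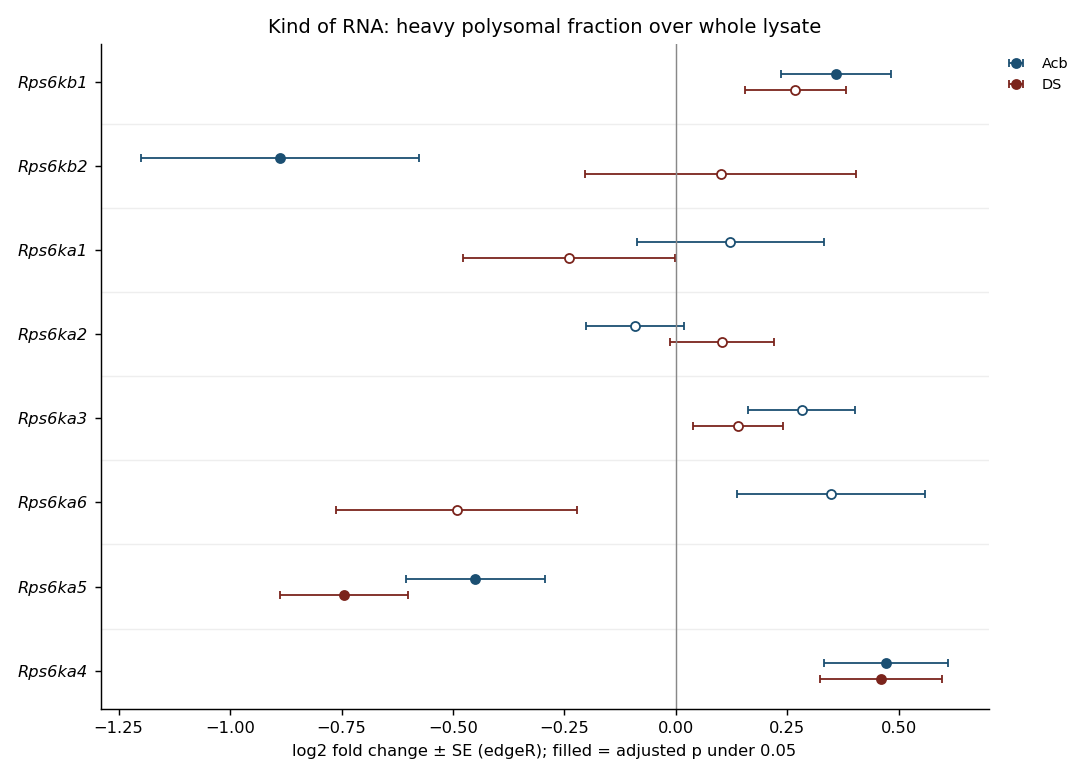
Log2 fold change (heavy polysomal fraction over whole lysate, ± SE) of each rpS6 kinase gene in the Acb and the DS, with filled points for an adjusted p under 0.05. *Rps6ka4* is filled above 0 (0.47 and 0.46) and *Rps6ka5* below 0 (-0.45 and -0.74) in both regions, while *Rps6kb1* (0.36) and *Rps6kb2* (-0.89) are filled in the Acb.

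Calls of this contrast changed when a trend on transcript length was removed from each library. Then *Rps6ka3*, the longest transcript of the family, was called in the Acb (0.61, adjusted p = 7.17e-05 in edgeR) and in the DS (0.65, adjusted p = 2.99e-07). *Rps6kb1* (0.62, adjusted p = 1.41e-05) and *Rps6ka2* (0.43, adjusted p = 0.00199) were also called in the DS, and *Rps6ka5* was no longer called in the Acb (-0.37, adjusted p = 0.0663). The part of length in these differences was not tested beyond this setting. Among the marker lists, 6 of 9 microglial markers were higher in heavy fractions than in lysates in each region, with 2 lower in the Acb and 1 in the DS. Of 8 oligodendrocyte markers 4 were higher in the Acb and 5 in the DS, with 2 lower in each. Of all genes 15.6% were higher and 14.3% lower in the Acb, and 19.5% and 17.5% in the DS. The part of these cells in the members' values was not tested.

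Of the 87 regulators, substrates and relatives, 39 were called in the Acb (44.8%, 23 higher and 16 lower in heavy fractions) and 46 in the DS (52.9%, 23 higher and 23 lower), where 29.8% and 37.0% of all genes were. *Mtor* and *Rptor*, the kinase and the scaffold of mTORC1, were lower in heavy fractions, with -1.39 and -1.16 in the Acb and -1.17 and -1.39 in the DS. *Rheb*, the small GTPase that activates mTORC1, was higher, with 0.67 and 1.10. Of the 8 S6K substrates 0 were higher and 4 (Acb) and 3 (DS) lower, with the nucleotide synthesis gene *Cad* at -2.03 and -1.92 and *Rictor* at -0.98 and -1.21. Of the 6 genes of PP1 subunits and inhibitors 5 were higher in each region, among them *Ppp1r1b*, which encodes the PP1 inhibitor DARPP-32 of medium spiny neurons, with 0.67 and 0.80. In the Acb 1 was lower, the inhibitor gene *Ppp1r1a*, with -0.50. Of the 8 PKA genes 4 were higher and 1 lower in the Acb and 2 were higher and 2 lower in the DS, with the catalytic subunit gene *Prkaca* at 0.54 and 0.55. *Rps6* had -0.29 in the Acb (adjusted p = 0.0333) and 0.14 in the DS, which was not called.

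The genes whose profile over the 24 libraries was most like that of each member were found by the smallest root-mean-square (RMS) difference of log2 CPM, each gene centred on its mean, among 11979 genes. For *Rps6kb1* they were *Azin1* (0.110) and *Dmtf1* (0.119), where the median gene differed by 0.477. For *Rps6ka3* they were *Anks1b* (0.131) and *Gas7* (0.147), and for *Rps6ka4* *Lzts3* (0.171) and *Ndel1* (0.172). *Rps6ka5* was closest to *Med15* (0.197) and *Jmjd1c* (0.212). The less counted members had no such close match: the nearest gene was at 0.250 for *Rps6ka1* (*Mblac2*), 0.293 for *Rps6ka6* (*Ankrd34b*) and 0.420 for *Rps6kb2* (*Fastk*). *Rps6ka2* varied little, with an RMS deviation from its own mean of 0.184, and its nearest gene, *2610507B11Rik*, lay at 0.172.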

How the data were processed

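The authors aligned stranded 50-base reads to mm10 with TopHat 2.0.13 and Bowtie 2.2.3, dropped alignments above 3 mismatches, ran HTSeq 0.6.1p1 (stranded, union mode) and deposited the resulting raw counts, which are not normalized. All 24 columns were matched to samples. Here edgeR 4.0.16 in R 4.3.3 was used (TMM, quasi-likelihood F test, Benjamini-Hochberg, adjusted p under 0.05, genes with at least 15 reads over the libraries compared), with models fitted to all genes and tested on simulated data first. DESeq2 1.42.0, its size factors, filterByExpr, no filter, removal of a length trend (loess, span 0.5), single genotypes, the replicate block and leaving out replicates were alternatives. Transcripts, positions and sequences came from GRCm38.p6 (RefSeq positions). Figures were drawn with matplotlib 3.10.9.

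Heavy and lysate libraries of the same number were taken to come from the same homogenate, which the labels do not state. They were paired only in the replicate block, and the reported fits left them unpaired. Of 12 such pairs 0 had a correlation of residuals above 0.1 (-0.0376 to 0.0743). In the genotype, region and genotype by region comparisons the block was the replicate number alone, which the labels do not tie to shared mice. Replicates are separate pools of mice, of a size given differently within the study.

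The members and lists were chosen with earlier results of these data known. Named are all members, *Rps6*, per list the called genes with the largest changes or, where none was called, the lowest p, and the 2 genes most like each member, of which only some are printed.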

Additional observations from a re-analysis of the deposited data

How the results depend on the processing

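Counts of members called were compared over 13 comparisons. In 193 of 209 alternatives the count stayed within 1.5 times that of the reported setting. This total includes the 8 comparisons on genotype and that of region by kind of RNA, in which the reported setting called 0 members. Where members were called, a change by 1 member can count as kept, and so can a change in which members were called. DESeq2's Wald test called 1 member between genotypes in DS lysates. Between regions, wild-type libraries alone called 0 in heavy fractions and 0 in lysates, and rpS6P-/- libraries alone 1 in lysates. Between heavy fractions and lysates, wild-type libraries alone called 1 in the Acb and 1 in the DS, rpS6P-/- libraries alone 0 in the Acb, and removal of the length trend 5 in the DS, alone or with the replicate block. With the replicate block alone 3 members were called in the Acb, and the block changed no other call of a member. Single genotypes hold fewer samples. For the other changes the cause was not tested.

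Leaving out 1 replicate gave 1 to 3 members between regions in lysates, 1 to 3 between heavy fractions and lysates in the Acb and 1 to 3 in the DS. The lowest counts came without DS wild-type lysate replicate 1 (1 member), without Acb rpS6P-/- replicate 1 (1) and without DS rpS6P-/- replicate 2 (1), and in the Acb 2 were called without rpS6P-/- replicate 2 or any wild-type replicate.

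No called member changed direction under any alternative, but 21 values that were not called did so in 41 settings, and the cause was not tested. Between genotypes, leaving out 1 replicate moved the log2 value in heavy fractions of the Acb between -0.119 and 0.0488 for *Rps6kb1* and between -0.107 and 0.0619 for *Rps6ka3*. In Acb lysates the ranges were -0.182 to 0.0294 for *Rps6kb1*, -0.0842 to 0.0625 for *Rps6ka2*, -0.0327 to 0.21 for *Rps6ka3* and -0.0199 to 0.189 for *Rps6ka5*. In heavy fractions of the DS they were -0.00212 to 0.205 for *Rps6kb1*, -0.618 to 0.0326 for *Rps6ka1*, -0.116 to 0.175 for *Rps6ka2*, -0.141 to 0.0917 for *Rps6ka4* and -0.268 to 0.196 for *Rps6ka6*, and in DS lysates -0.823 to 0.117 for *Rps6kb2*. Between regions, *Rps6kb2* in lysates ranged from -0.401 to 0.0791, and between heavy fractions and lysates *Rps6ka1* ranged from -0.115 to 0.224 in the Acb and *Rps6kb2* from -0.059 to 0.449 in the DS.

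With the length trend removed, alone and together with the replicate block, the log2 values were -0.0353 and -0.0222 for *Rps6ka2* (genotype, DS heavy fractions), -0.0221 and -0.0225 for *Rps6kb1* (genotype, DS lysates), -0.0534 and -0.0501 for *Rps6ka2* (region, heavy fractions), -0.0114 and -0.0147 for *Rps6ka1* and 0.0797 and 0.0826 for *Rps6ka2* (heavy over lysate, Acb), and -0.334 and -0.252 for *Rps6kb2* (heavy over lysate, DS). In rpS6P-/- libraries alone *Rps6ka2* had -0.00295 between regions in heavy fractions, *Rps6kb2* had 0.126 between regions in lysates, and *Rps6ka2* and *Rps6ka3* had -0.0362 and -0.0438 for heavy over lysate in the DS. In wild-type libraries alone, heavy over lysate was -0.364 for *Rps6ka1* and -0.0948 for *Rps6ka6* in the Acb and -0.32 for *Rps6kb2* in the DS.

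Of the 1098 log2 values recomputed, 1000 kept their direction and, where there was an adjusted p, their side of the threshold. DESeq2 gave none for 16 of them. *Rps6kb2* had 35 to 254 reads a library and an SE of up to 0.51 between genotypes, so a log2 change of that size was not detectable with 3 libraries a group. The shared sequence of *Rps6ka2* and *Rps6ka4* and the pooled mice limit both levels and p-values.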
